A study of Mus musculus with 24 samples.

Results

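The 9 genes of ion and water transport that are known from the choroid plexus were followed through the hippocampal libraries of a study of MSK1 and environmental enrichment. They are Aqp1, Slc4a5, Slc4a2, Slc4a10, Slc12a2, Clic6, Car12, Car14 and Atp1b1, picked by symbol out of 49568 gene symbols in the count files, and all 9 passed the filter on low counts, as did 18482 genes in all. Each was measured as CPM, its count relative to the library size after scaling by trimmed mean of M values (TMM), and set against Ttr, which encodes the thyroid hormone carrier transthyretin and is the most used marker of choroid plexus epithelium. The whole hippocampus was taken from experimentally naive male mice, given as 12 weeks old on the labels, which were wild-type (WT) or homozygous for a kinase-dead MSK1 (MSK1 KD), an aspartate-to-alanine change in the N-terminal kinase domain of the endogenous gene. Both lines were on a C57-Bl/6J background and were kept as separate homozygous lines. Mice of either genotype were reared in standard housing (SH) or, from before birth, in an enriched environment (EE) of large cages with a running wheel and toys that were moved and exchanged. The 22 libraries used came from 6 standard housed and 5 enriched WT samples and as many MSK1 KD ones, which leaves out WT EE library 33B and KD EE library 34B, both marked on their labels for rRNA contamination. The study itself further set aside WT SH library 12, WT EE libraries 31B and 35A, KD SH library 2 and KD EE library 9 for poor correlation with their group, so 17 libraries remained in its own comparisons, and results are given for both sets.

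The choroid plexus is a folded epithelium in the brain ventricles that secretes cerebrospinal fluid. Its cells take up sodium, chloride and bicarbonate from the blood side and pass them, with water, to the ventricle, through the sodium pump, bicarbonate and chloride carriers, carbonic anhydrases and the water channel aquaporin. Some of these carriers are found in few other brain cells, while others also serve neurons and glia, where they set chloride, pH and membrane potential. The lateral ventricle and its choroid plexus lie beside the hippocampus, and in whole tissue RNA fewer cells of a type and less RNA in each cell cannot be told apart.

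Counts on genes ranged from 8911999 to 56752074 in the 22 libraries. As the floor of detection, 3 counts stood for 0.0529 to 0.337 CPM before TMM scaling, which covers counting error only. The libraries had the markers of hippocampal tissue in every case, with 8996 to 10748 CPM summed over 6 neuronal genes and 893 to 1354 CPM over 6 genes of hippocampal subfields. A point mutation leaves the counts of the MSK1 gene in place, so they do not check the genotype. The study looked for the mismatch in its aligned reads at that gene, and those reads were not used here. The labels number the libraries without saying that each is a separate animal, and the p-values measure the spread between these libraries. No 2 libraries of a group held identical counts.

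Ttr itself divided the libraries into groups that genotype and housing did not follow in full. It was between 16.8 and 166 CPM in 12 libraries and between 690 and 5125 CPM in the other 10, with a gap of 2.05 on the log2 scale against 0.94 for the next widest gap. The 12 lower libraries held 4 standard housed and 2 enriched WT libraries with 5 standard housed and 1 enriched KD library. The 10 higher ones held 2 standard housed and 3 enriched WT libraries with 1 standard housed and 4 enriched KD libraries. All 5 libraries that the study set aside lay with the Ttr level that was the less common one in their group: WT SH library 12 and KD SH library 2 were among the higher, and WT EE libraries 31B and 35A and KD EE library 9 among the lower.

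The level of each transporter was split by a straight line on Ttr into a part at a Ttr of 0, the baseline, and a part that moved with Ttr. The baseline was expressed as a share of the fitted level at the highest Ttr, and a share under 20% was called choroid-restricted, 20% to 50% mixed, and over 50% with a baseline. Aqp1, Slc4a5 and Clic6 were choroid-restricted, Slc4a2, Car12 and Car14 were mixed, and Slc12a2, Slc4a10 and Atp1b1 had a baseline. Restricted genes whose slope was over 3 times its standard error made up 0.676% of all genes tested, 125 of 18482, and mixed genes 1.46%, 270 of 18482. The shares nearest to the limits were 1.31% for Clic6 and 31.96% for Slc4a2 around the lower, and 41.9% for Car14 and 62.2% for Slc12a2 around the upper.

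**Figure D1:**
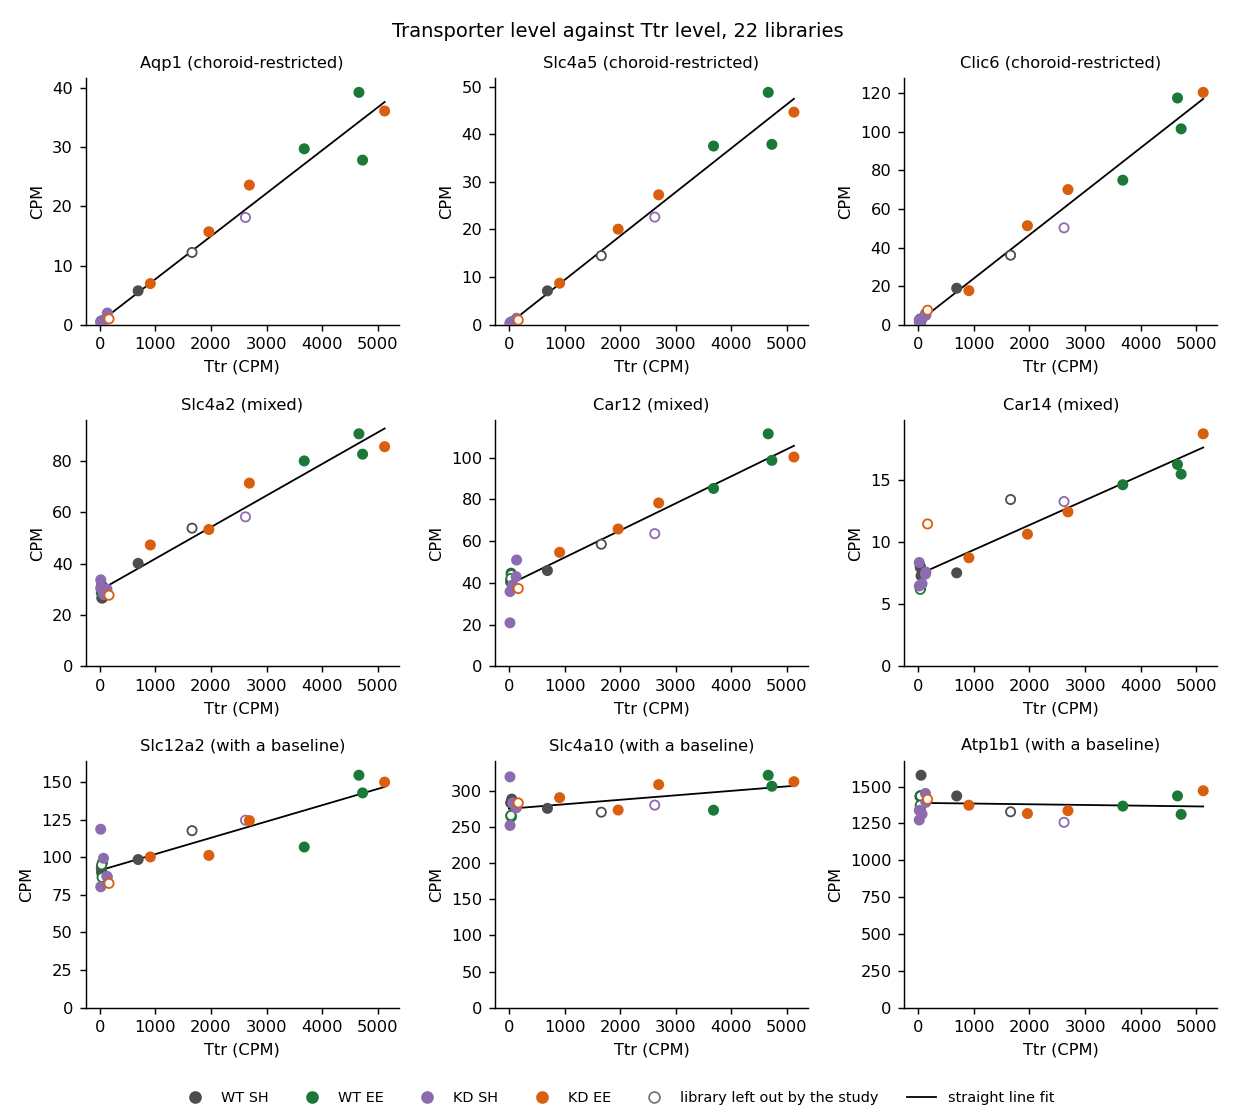
CPM of each transporter (vertical axis) against CPM of Ttr (horizontal axis) in 22 libraries, coloured by group, with open circles for libraries that the study left out and the straight line fit in black. Aqp1, Slc4a5 and Clic6 fall to a small share of their highest values (0.927% for Aqp1), Slc4a2, Car12 and Car14 start from a level above 0, and Slc4a10 and Atp1b1 are nearly flat.

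**Figure D2:**
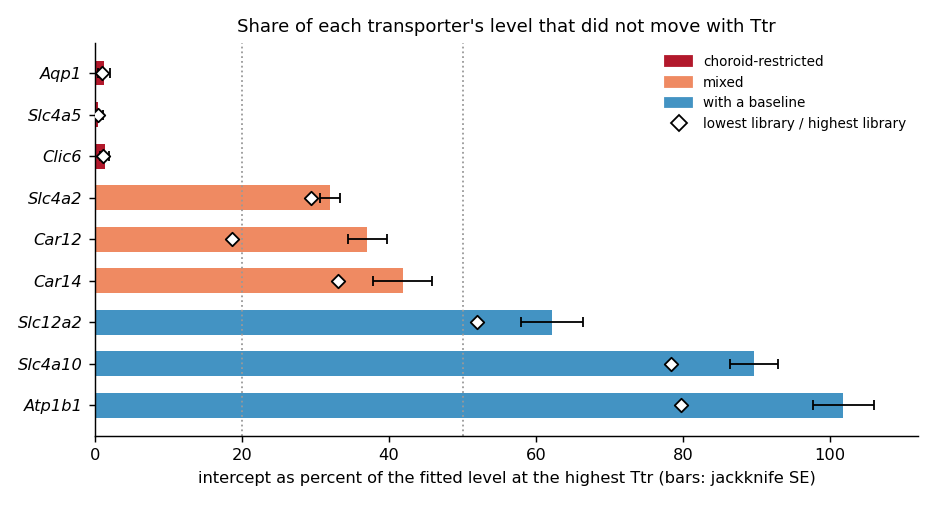
Baseline share of each transporter in percent of its fitted level at the highest Ttr (bars, with the jackknife standard error over libraries), and the lowest library in percent of the highest (diamonds). Dotted lines mark 20% and 50%, and the shares run from 0.453% for Slc4a5 to 101.8% for Atp1b1.

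The promoters of a restricted pair and of members with other behaviour are shown for comparison, since Aqp1 and Slc4a5 moved together and Atp1b1 did not move with them. RefSeq promoters (GRCm38.p6) were matched for 7 of the 9 members by symbol, and Clic6 was not among them. The 3 short motifs were searched on both strands from 250 bases before to 50 after the start site: TAATCC, the core of sites for OTX-type homeodomain factors, TATAAA and GGGCGG. They do not overlap one another in these windows. Among 32851 promoters of the same length, TAATCC was in 7.06%, TATAAA in 13.6% and GGGCGG in 35.7%. The 250 bases before the start are printed 5′ to 3′ on the strand of the gene, with motif matches on either strand in capitals. Aqp1 lies on the plus strand (chr6:55336049-55336298), as does Slc4a5 (chr6:83237125-83237374), and Car14 (chr3:95904686-95904935) and Atp1b1 (chr1:164458356-164458605) lie on the minus strand.
Aqp1: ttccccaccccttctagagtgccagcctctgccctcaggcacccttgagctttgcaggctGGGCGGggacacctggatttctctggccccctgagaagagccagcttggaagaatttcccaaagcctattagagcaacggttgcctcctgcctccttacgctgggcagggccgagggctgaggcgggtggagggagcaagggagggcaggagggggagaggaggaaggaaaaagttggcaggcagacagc
Slc4a5: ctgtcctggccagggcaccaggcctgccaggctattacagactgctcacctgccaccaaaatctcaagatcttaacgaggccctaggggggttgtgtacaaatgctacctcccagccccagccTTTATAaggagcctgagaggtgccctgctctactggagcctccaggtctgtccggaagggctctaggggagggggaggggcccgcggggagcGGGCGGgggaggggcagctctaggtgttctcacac
Car14: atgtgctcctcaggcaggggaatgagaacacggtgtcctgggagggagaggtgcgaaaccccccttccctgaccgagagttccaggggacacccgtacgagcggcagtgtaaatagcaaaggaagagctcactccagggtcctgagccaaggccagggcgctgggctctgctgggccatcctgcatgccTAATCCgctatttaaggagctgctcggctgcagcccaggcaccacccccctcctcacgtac
Atp1b1: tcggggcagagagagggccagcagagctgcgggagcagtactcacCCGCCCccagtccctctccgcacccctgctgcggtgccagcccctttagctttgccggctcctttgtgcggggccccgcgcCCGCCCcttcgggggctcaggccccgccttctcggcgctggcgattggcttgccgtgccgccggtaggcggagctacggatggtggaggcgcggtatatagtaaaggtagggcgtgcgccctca
The Aqp1 window held 1 GGGCGG, 190 bases before the start, and neither other motif. Slc4a5 held TATAAA on the opposite strand, 127 bases before the start, and GGGCGG 35 bases before it. Car14, a mixed member, was the only one of the 7 with TAATCC, and Atp1b1 held GGGCGG at 2 positions on the opposite strand. A match is a description of these letters only, and Aqp1 and Slc4a5 did not share a motif that Atp1b1 lacked. Clic6, the other restricted member, was not searched. The Slc4a5 window lies inside the span of the gene, 83219828 to 83304945, so the bases before that span were not searched.

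Aqp1 (ENSMUSG00000004655, chr6:55336432-55348555 on GRCm38, plus strand) encodes the water channel of the ventricular face of the choroid epithelium. In WT SH it ranged from 0.371 to 12.2 CPM with a median of 0.643 CPM, and in KD SH from 0.3795 to 18.1 CPM with a median of 0.829 CPM. The 5 WT EE libraries held 0.364, 0.595, 27.8, 29.7 and 39.2 CPM, and the 5 KD EE libraries 1.001, 6.96, 15.7, 23.6 and 36.1 CPM. So 3 of 5 WT EE libraries lay above every WT SH library while 1 lay below them all, and 2 of 5 KD EE libraries lay above every KD SH library. The lowest library was at 0.927% of the highest. Against Ttr the slope was 7.25 ± 0.273 (SE) CPM for each 1000 CPM of Ttr, and the intercept of 0.453 ± 0.6001 CPM was within its error of 0.

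Slc4a5 (ENSMUSG00000068323, chr6:83219828-83304945, plus strand) encodes a sodium bicarbonate cotransporter of the same ventricular membrane. It ranged from 0.322 to 14.5 CPM in WT SH, with a median of 0.557 CPM, and from 0.217 to 22.6 CPM in KD SH, with a median of 0.860 CPM. In WT EE the values were 0.198, 0.451, 37.5, 37.9 and 48.8 CPM, and in KD EE 1.001, 8.73, 20.1, 27.3 and 44.6 CPM. The order of the libraries was close to that for Aqp1, with WT EE libraries 31B and 35A at the level of standard housing and KD SH library 2 at the level of enrichment. Its slope was 9.21 ± 0.273 CPM for each 1000 CPM of Ttr and its baseline share 0.453%, the smallest of the 9.

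Clic6 (ENSMUSG00000022949, chr16:92485736-92541243, plus strand) belongs to the chloride intracellular channel family. Its levels were 2.73 to 36.1 CPM in WT SH, with a median of 2.95 CPM, and 1.24 to 50.2 CPM in KD SH, with a median of 4.01 CPM. WT EE libraries held 1.35, 1.49, 74.9, 101.5 and 117.5 CPM, and KD EE libraries 7.56, 17.7, 51.3, 70.0 and 120.4 CPM. The 2 WT EE libraries at the bottom lay below every WT SH library, and the other 3 lay above every one. Clic6 had the steepest slope of the 9 on the scale of CPM for each kilobase of exon, 5.76 ± 0.158 for each 1000 CPM of Ttr, followed by Aqp1 at 2.76 ± 0.104 and Car12 at 1.71 ± 0.105.

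Within the 10 libraries of higher Ttr, the ratio of the restricted members to it varied less than Ttr did. Aqp1 stood between 5.88 and 8.76 CPM for each 1000 CPM of Ttr (coefficient of variation 11.3%), Slc4a5 between 8.01 and 10.5 (9.43%) and Clic6 between 19.2 and 27.4 (13.1%), while Ttr itself varied by 56.1%. On the log2 scale, Pearson's r with Ttr over these 10 libraries was 0.986 for Aqp1, 0.991 for Slc4a5 and 0.982 for Clic6 and Spearman's rho was 0.939, 0.964 and 0.964. Without the 2 libraries farthest from the median of Ttr, r was 0.953, 0.971 and 0.964. The classes were set by the line on Ttr in the same libraries, so these coefficients, and those of the other members below, are a description without a test.

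In the 12 libraries of lower Ttr the 3 restricted members lay at levels of 0.364 to 1.99 CPM for Aqp1, 0.198 to 1.38 CPM for Slc4a5 and 1.24 to 7.56 CPM for Clic6. Each had at least 4 counts in every one of these libraries. Their ratio to Ttr was not fixed there. It ran from 6.02 to 31.4 CPM for each 1000 CPM of Ttr for Aqp1 (coefficient of variation 53.5%), from 4.76 to 25.1 for Slc4a5 (45.4%) and from 35.7 to 151.6 for Clic6 (51.5%), so that every lower library had a higher ratio of Clic6 to Ttr than any of the 10 higher ones. A line over the lower libraries alone gave Clic6 an intercept of 1.0954 ± 0.351 CPM and a slope of 34.8 ± 4.40 CPM for each 1000 CPM of Ttr, against 22.5 over the 22 libraries. With Ttr, r was 0.723 for Aqp1, 0.829 for Slc4a5 and 0.813 for Clic6, and Spearman's rho was 0.469, 0.748 and 0.839. Without libraries 9 and 4, the 2 farthest from the median, r was 0.506, 0.711 and 0.666. For Aqp1 the relation at low Ttr thus rested in part on those libraries.

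The genes whose log2 CPM followed the restricted members most closely over the 22 libraries, among 18472 compared, were other genes of the choroid epithelium list or ones outside it. For Aqp1 they were Tmem72 (r = 0.988), Sostdc1 (0.986) and Folr1 (0.984). Slc4a5 was followed by Sostdc1 (0.990), F5 (0.989) and Krt18 (0.985), and Clic6 by Sostdc1 (0.990), F5 (0.989) and Krt18 (0.989). These coefficients describe likeness over libraries that share the Ttr clusters, and are given without a test.

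Slc4a2 (ENSMUSG00000028962, chr5:24423837-24440950, plus strand) encodes the chloride-bicarbonate exchanger of the blood side of the choroid epithelium, and is also present in other cells. It ranged from 26.6 to 53.9 CPM in WT SH (median 30.3 CPM) and from 27.97 to 58.3 CPM in KD SH (median 30.3 CPM). In WT EE the libraries held 28.7, 30.4, 80.1, 82.7 and 90.6 CPM, and in KD EE 27.7, 47.3, 53.3, 71.4 and 85.6 CPM. The floor was thus similar in all 4 groups, and the libraries with high Ttr stood above it. The line had an intercept of 29.6 ± 1.11 CPM and a slope of 12.3 ± 0.507 CPM for each 1000 CPM of Ttr, a baseline share of 31.96%. In the lower cluster r with Ttr was -0.424 for Slc4a2 with a rho of -0.517, and r was -0.364 without the 2 farthest libraries. In the higher cluster r was 0.965 with a rho of 0.952, and 0.950 without the farthest 2. Of its exonic bases 14.9% overlap genes on the other strand, Fastk and Gm22333, and counting did not use strand. Its closest genes were Ace (r = 0.985), Col4a4 (0.981) and Gm44250 (0.981).

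Car12 and Car14 are membrane-bound carbonic anhydrases, which interconvert carbon dioxide and bicarbonate outside the cell. Car12 (ENSMUSG00000032373, chr9:66713686-66766845, plus strand) ranged from 40.4 to 58.5 CPM in WT SH (median 43.6 CPM) and from 20.8 to 63.6 CPM in KD SH (median 41.0 CPM). WT EE libraries held 42.1, 43.9, 85.3, 98.7 and 111.5 CPM, and KD EE libraries 37.3, 54.6, 65.8, 78.3 and 100.4 CPM. The lowest value by far, 20.8 CPM, was that of KD SH library 5, which also had the lowest Ttr, 16.8 CPM. The line gave an intercept of 39.2 ± 1.75 CPM, a slope of 12.99 ± 0.799 CPM for each 1000 CPM of Ttr and a baseline share of 37.1%. Its closest genes were Slc29a4 (r = 0.959), Rbm47 (0.950) and Oca2 (0.948).

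Car14 (ENSMUSG00000038526, chr3:95897768-95904691, minus strand) was the lowest of the mixed members per kilobase of exon, with a median of 3.23 CPM for each kilobase against 3.93 for Slc4a2 and 5.96 for Car12. It ranged from 6.47 to 13.4 CPM in WT SH (median 7.73 CPM) and from 6.46 to 13.3 CPM in KD SH (median 7.498 CPM). WT EE libraries held 6.19, 6.28, 14.6, 15.5 and 16.2 CPM, and KD EE libraries 8.73, 10.6, 11.5, 12.4 and 18.7 CPM. All 5 KD EE libraries were above the KD SH mean of 8.28 CPM, yet only 1 exceeded the highest KD SH library. KD EE library 9 stood at 11.5 CPM with a Ttr of 166 CPM, above every other library of the lower cluster. The intercept was 7.38 ± 0.354 CPM, the slope 2.00 ± 0.161 CPM for each 1000 CPM of Ttr and the baseline share 41.9%. Of its exonic bases 17.5% overlap Aph1a on the other strand. Its closest genes were Cab39l (r = 0.945), Prkcq (0.943) and Rdh5 (0.937).

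Slc12a2 (ENSMUSG00000024597, chr18:57878678-57946821, plus strand) encodes the sodium-potassium-chloride cotransporter, a carrier of choroid epithelium, developing neurons and glia. It ranged from 89.5 to 117.7 CPM in WT SH (median 94.9 CPM) and from 80.4 to 124.7 CPM in KD SH (median 93.4 CPM). WT EE libraries held 86.6, 95.01, 106.8, 142.8 and 154.6 CPM, and KD EE libraries 82.6, 100.2, 101.3, 124.4 and 150.0 CPM. The lowest library was still at 52.0% of the highest. The intercept was 91.3 ± 2.80 CPM and the slope 10.8 ± 1.28 CPM for each 1000 CPM of Ttr, so that 62.2% of the level at the highest Ttr was baseline. In the higher cluster r with Ttr was 0.822 with a rho of 0.855, and r was 0.739 without the 2 farthest libraries. In the lower cluster r was -0.406 with a rho of -0.308, and r was -0.220 without the 2 farthest libraries. There KD SH library 5 was at 118.7 CPM while its Ttr was the lowest of all. Among its closest genes was Stk39 (r = 0.921), the kinase SPAK that phosphorylates this cotransporter, beside Vat1l (0.924) and Sytl3 (0.917).

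Slc4a10 (ENSMUSG00000026904, chr2:62046462-62326730, plus strand) encodes a sodium-driven bicarbonate transporter of the blood side of choroid epithelium and of neurons. All 22 libraries lay between 252.1 and 321.6 CPM, and the group medians were 273.1 CPM in WT SH, 273.3 CPM in WT EE, 278.8 CPM in KD SH and 290.6 CPM in KD EE. Among the highest libraries were WT EE library 33A with 321.6 CPM and KD SH library 5 with 319.4 CPM, whose Ttr was 4663 CPM and, the lowest of all, 16.8 CPM. The intercept was 275.2 ± 4.31 CPM and the slope 6.19 ± 1.97 CPM for each 1000 CPM of Ttr, a baseline share of 89.7%. For each kilobase of exon, however, the slope of 0.963 ± 0.306 CPM was near that of Slc12a2, 0.993 ± 0.117, while the baselines were 42.8 and 8.36 CPM for each kilobase. Its closest genes were Cul4b (r = 0.873), Prps2 (0.832) and Cd164 (0.829).

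Atp1b1 (ENSMUSG00000026576, chr1:164437109-164458355, minus strand) encodes a beta subunit of the sodium pump, used by the choroid epithelium and heavily by neurons. It lay between 1257 and 1577 CPM in all 22 libraries, with group means of 1427 ± 87.9 CPM (SD, n = 6) in WT SH, 1385 ± 52.6 CPM (n = 5) in WT EE, 1338 ± 74.2 CPM (n = 6) in KD SH and 1382 ± 62.1 CPM (n = 5) in KD EE. The groups overlapped in every comparison. The slope on Ttr was -4.79 ± 9.29 CPM for each 1000 CPM of Ttr and the line explained 1.31% of its variance, against 98.5% for Clic6. Its baseline of 450.9 CPM for each kilobase of exon was the highest of the 9. Of its exonic bases 18.7% overlap Nme7 on the other strand, and its closest genes were Glyr1 (r = 0.826), Nrp2 (0.776) and Fam13c (0.774).

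The slopes of the restricted members on Ttr were also fitted in each group. For Aqp1 they were 7.27 ± 0.188 in WT SH, 7.23 ± 1.073 in WT EE, 6.76 ± 0.172 in KD SH and 7.15 ± 0.596 CPM in KD EE for each 1000 CPM of Ttr. For Slc4a5 the range was 8.57 to 9.38 CPM, with errors of up to 1.05 CPM. For Clic6 the slopes differed more, at 18.4 ± 0.408 CPM in KD SH, 20.8 ± 0.830 CPM in WT SH, 22.7 ± 1.88 CPM in WT EE and 23.5 ± 1.28 CPM in KD EE. The difference of slopes between groups was not tested, and the slope in KD SH rests on library 2 alone, the only one of that group with high Ttr.

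The first question of the design was whether enrichment changed these genes in WT mice. The restricted members had the largest differences and the largest errors, and none was called. In the quasi-likelihood test of edgeR over 22 libraries, 0 of 9 members met both limits, an adjusted p up to 0.05 and a log2 fold change of at least 0.38 in size, and 0 of 18482 genes (0%), while 5 members and 1598 genes had an unadjusted p under 0.05. Mean Aqp1 was 19.5 ± 17.9 CPM (SD, n = 5) in enriched WT mice and 3.34 ± 4.82 CPM (n = 6) in standard housed ones, with a log2 fold change of 2.62 ± 1.06 (SE, edgeR adjusted p = 0.466). The log2 fold change was 2.75 ± 1.14 for Slc4a5 (adjusted p = 0.476) and 2.47 ± 0.99 for Clic6 (adjusted p = 0.466). Mixed members had smaller values with smaller errors, 0.85 ± 0.29 for Slc4a2, 0.74 ± 0.25 for Car12 and 0.48 ± 0.25 for Car14 (adjusted p = 0.411, 0.411 and 0.634). Slc12a2 stood at 0.26 ± 0.15, Slc4a10 at 0.06 ± 0.06 and Atp1b1 at -0.04 ± 0.05 (adjusted p = 0.655, 0.855 and 0.885). Ttr was at 2.66 ± 1.33 (adjusted p = 0.598). The median over the 9 members was 0.74, against 0.01 over all genes tested. For 0 of the 9 members were all WT EE libraries above all WT SH libraries, where 0.46% of genes were. Without WT SH library 12 the log2 fold change was 3.77 for Aqp1, 3.95 for Slc4a5 and 3.36 for Clic6. Without WT EE library 33A it was 2.18, 2.33 and 2.04. Slc12a2 was at 0.14 without that library and at 0.35 without WT EE library 31B.

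The same question in MSK1 KD mice gave a like picture over the 22 libraries. Of the 9 members 0 were called, as were 0 of 18482 genes (0%), with 5 members and 1779 genes at an unadjusted p under 0.05 in edgeR. Mean Aqp1 was 16.7 ± 13.8 CPM (n = 5) in KD EE and 3.77 ± 7.05 CPM (n = 6) in KD SH, and the log2 fold change was 2.12 ± 1.02 (edgeR adjusted p = 0.516). It was 2.18 ± 1.09 for Slc4a5, 2.22 ± 0.97 for Clic6, 0.73 ± 0.29 for Slc4a2, 0.68 ± 0.25 for Car12 and 0.59 ± 0.26 for Car14 (adjusted p = 0.530, 0.491, 0.478, 0.467 and 0.491). Slc12a2 had 0.17 ± 0.15, Slc4a10 0.06 ± 0.06 and Atp1b1 0.05 ± 0.05 (adjusted p = 0.717, 0.758 and 0.797). The median over the members was 0.68, against 0.0028 over all genes. Every KD EE library was above every KD SH library for 0 of 9 members and for 0.233% of genes. A single library moved these values by more than 1.5 times, since without KD SH library 2 the log2 fold change was 4.11 for Aqp1, 4.63 for Slc4a5 and 3.89 for Clic6. Without KD EE library 36A it was 1.66, 1.71 and 1.71. Slc12a2 was at 0.050 without that library and at 0.26 without KD EE library 9.

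**Figure D3:**
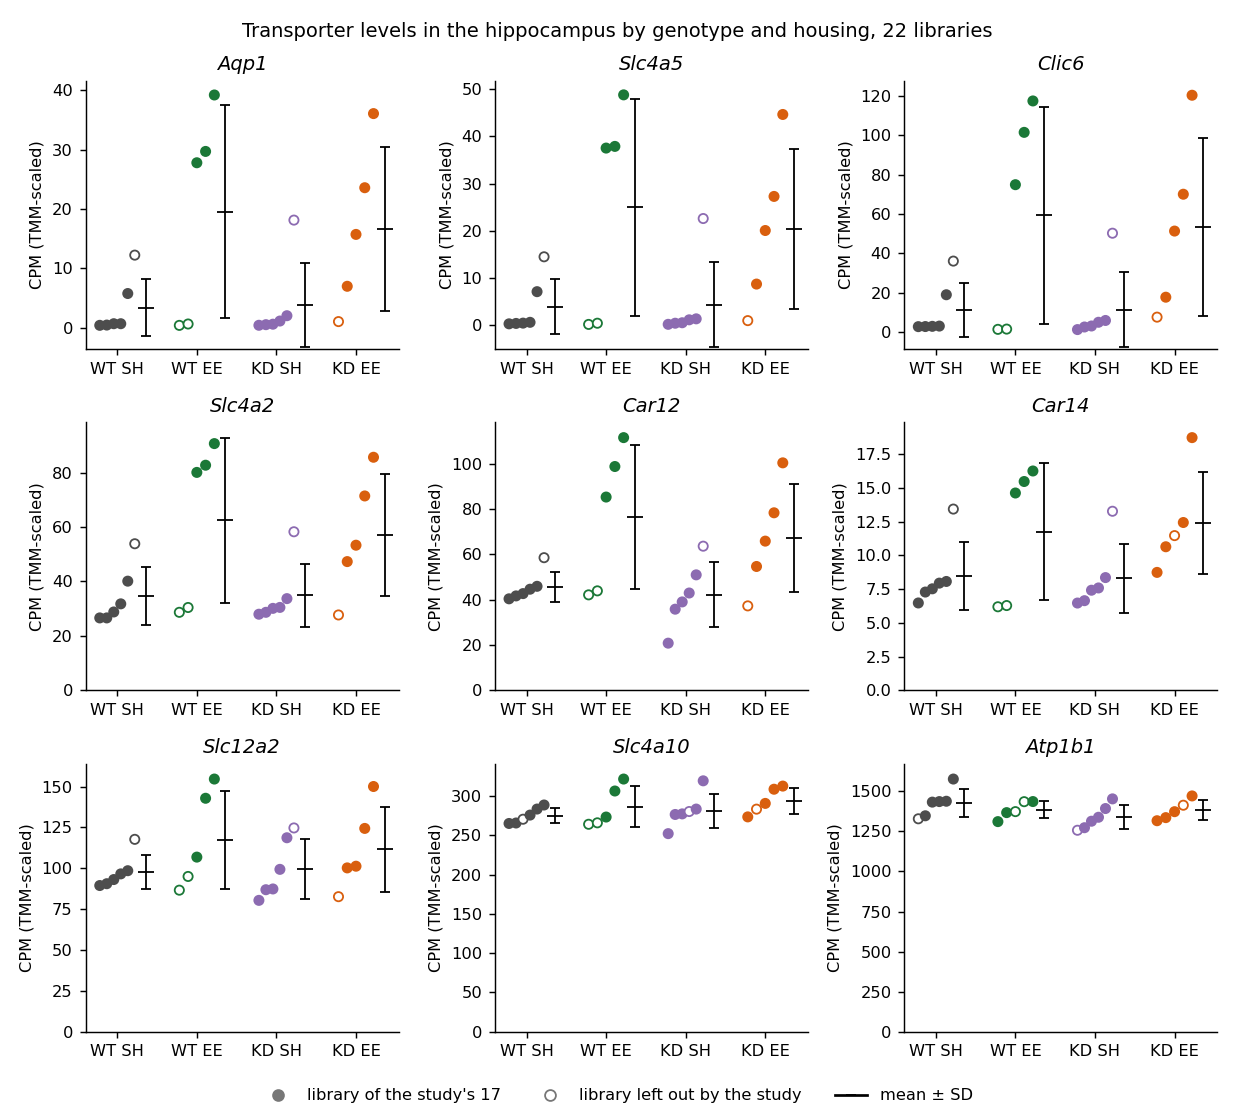
CPM of the 9 transporters by group in 22 libraries (points), with mean and SD beside them. Open circles are the 5 libraries that the study left out, and in the top row those of SH lie above, and those of EE below, the other libraries of their group.

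With the study's 17 libraries, the outcome differed. In WT, 7 of 9 members were called, all higher in EE, with 664 of 18701 genes called (3.55%) and 651 of them higher (3.48%). Aqp1 was at 32.2 ± 6.14 CPM (SD, n = 3) with enrichment and 1.56 ± 2.34 CPM (n = 5) without it, for a log2 fold change of 4.53 ± 0.57 (edgeR adjusted p = 1.35e-05). Slc4a5 rose by 4.72 ± 0.60 and Clic6 by 4.10 ± 0.54 on the log2 scale (adjusted p = 1.57e-05 and 2.57e-05). Slc4a2 rose by 1.46 ± 0.14, Car12 by 1.20 ± 0.18, Car14 by 1.05 ± 0.16 and Slc12a2 by 0.53 ± 0.13 (adjusted p = 9.89e-07, 0.000155, 0.000133 and 0.0179). Slc4a10 was at 0.12 ± 0.07 and Atp1b1 at -0.08 ± 0.07 (adjusted p = 0.499 and 0.678). The 7 members called were also those whose WT EE libraries all lay above every WT SH library, which 8.07% of genes did.

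In MSK1 KD mice with those 17 libraries, 6 of 9 members were called, all higher in EE, with 325 genes called (1.74%) and 307 higher (1.64%). The log2 fold change was 4.35 ± 0.55 for Aqp1, 4.88 ± 0.61 for Slc4a5 and 4.13 ± 0.53 for Clic6 (edgeR adjusted p = 3.26e-05, 2.37e-05 and 3.86e-05). It was 1.10 ± 0.13 for Slc4a2, 0.97 ± 0.17 for Car12 and 0.81 ± 0.15 for Car14 (adjusted p = 1.97e-05, 0.00146 and 0.0022). Slc12a2 was at 0.34 ± 0.12 and did not pass (adjusted p = 0.230). The same 6 were without overlap, as were 2.12% of genes, every KD EE library higher. Ttr moved with them, since in this set it was 16.8 to 136.0 CPM in KD SH and 909.6 to 5127 CPM in KD EE. For WT it was 28.5 to 690.7 CPM in SH and 3678 to 4729 CPM in EE. The libraries were set aside in the study for their correlation within groups, a measured outcome, and Ttr differs between those kept and those set aside, so a call in the 17 is not independent of that choice.

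Genotype made no call in any member. For WT SH against KD SH, 0 of 9 members were called over 22 libraries (0% of genes) and over 17 libraries (0%), and the members' log2 fold changes in the 22 ran from -0.33 for Aqp1 and for Slc4a5 to 0.10 for Car12, with Atp1b1 at 0.09 ± 0.05 (edgeR adjusted p = 0.814). The direction was not stable, since 3 of 9 members were higher in WT SH over all 22 libraries (median -0.03) and 8 of 9 without KD SH library 2 (median 0.21). Without WT SH library 10, 13, 14 or 15 it was 5 of 9, with medians of 0.0046 to 0.0487. In the 17 libraries, Aqp1 was at 0.44 ± 0.66, Slc4a5 at 0.86 ± 0.73 and Clic6 at 0.62 ± 0.55 (edgeR adjusted p = 0.942, 0.888 and 0.896). For WT EE against KD EE, 0 of 9 members were called over 22 libraries (0%) and 0 of 9 over 17, where 0.00535% of genes, 1 gene, were called. In the 22, Aqp1 was at 0.17 ± 1.01, Slc4a5 at 0.24 ± 1.08 and Clic6 at 0.11 ± 0.97 in that comparison, so differences of these genes between enriched groups were not detectable unless large. Of these 2 comparisons over the 22, 1065 and 482 genes but 0 members had an unadjusted p under 0.05 in edgeR. The interaction of genotype and housing was called for 0 members in either set (0% of genes in each), with 377 genes and 0 members at an unadjusted p under 0.05 in the 22. The interaction term was 0.50 ± 1.45 for Aqp1, 0.57 ± 1.56 for Slc4a5, 0.13 ± 0.41 for Slc4a2 and -0.09 ± 0.08 for Atp1b1 on the log2 scale.

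**Figure D4:**
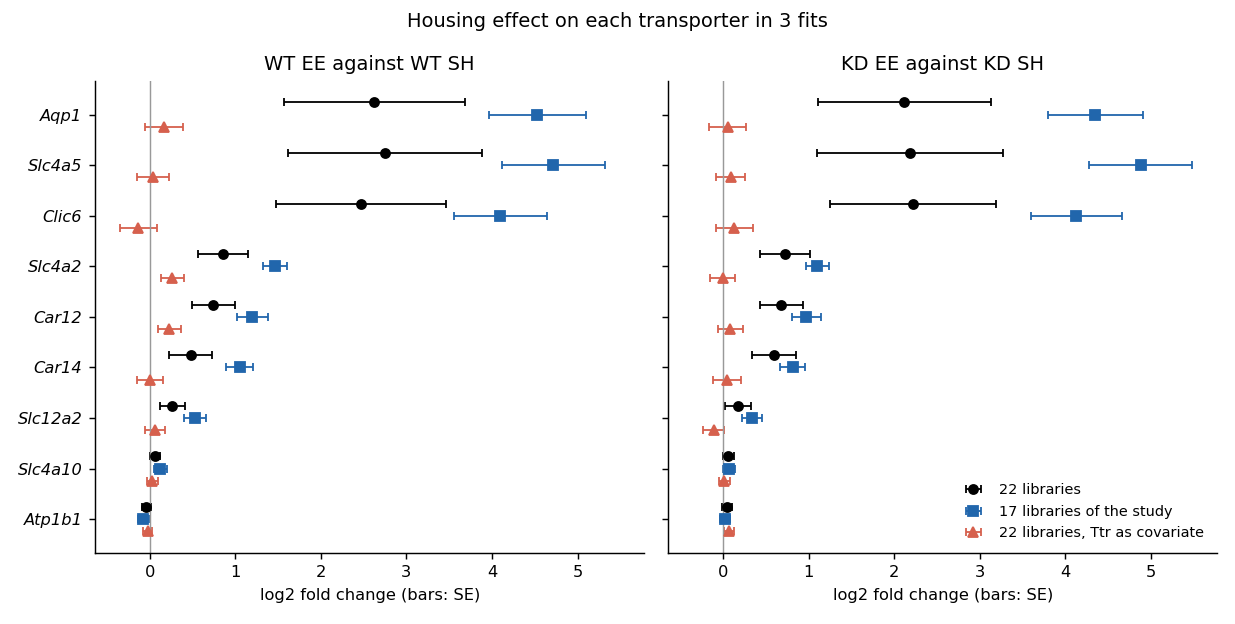
Log2 fold change of EE against SH for each transporter (points, with SE) in WT (left) and MSK1 KD (right) from 3 fits: 22 libraries, the study's 17, and 22 libraries with log2 Ttr in the model. The restricted members stand at 2.12 to 2.75 in the 22, at 4.10 to 4.88 in the 17, and between -0.14 and 0.17 at equal Ttr, a range that does not cover the other covariate described in the text.

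The members were then compared between groups at equal Ttr, with log2 CPM of Ttr in the model beside the 4 group means. Over 22 libraries 0 of 9 members were called for EE against SH in WT (0% of genes), in KD (0%), or for genotype in SH (0%) or in EE (0%). The WT housing difference of Aqp1 was then 0.17 ± 0.22 on the log2 scale, that of Slc4a5 0.03 ± 0.19 and that of Clic6 -0.14 ± 0.21 (edgeR adjusted p = 0.873, 0.982 and 0.898). In KD these were 0.05 ± 0.21, 0.09 ± 0.17 and 0.13 ± 0.22 (adjusted p = 0.944, 0.850 and 0.825). These values depended on the covariate. With the mean log2 CPM of 8 other choroid genes in place of Ttr, the WT difference was -0.16 ± 0.20 for Aqp1, -0.33 ± 0.23 for Slc4a5 and -0.38 ± 0.13 for Clic6 (edgeR adjusted p = 0.880, 0.743 and 0.477). In KD it was then -0.07 ± 0.20, -0.00 ± 0.19 and 0.00 ± 0.14, and between enriched genotypes Clic6 was at -0.31 ± 0.11 (edgeR adjusted p = 0.9999), where it was at -0.08 ± 0.18 at equal Ttr. With Ttr itself in the model, Slc4a2 was at 0.26 ± 0.14 and Car12 at 0.23 ± 0.14 in WT (adjusted p = 0.643 and 0.683), and at -0.01 ± 0.15 and 0.09 ± 0.14 in KD (adjusted p = 0.992 and 0.831). The model gives each member 1 slope on log2 Ttr over all libraries. For Slc4a2, r with Ttr was -0.424 in the lower cluster and 0.965 in the higher. How far 1 shared slope shapes the differences of members with a level at low Ttr was not tested. At equal Ttr, the largest difference between enriched genotypes was that of Car12, 0.28 ± 0.13 higher in WT than in KD (edgeR adjusted p = 0.9998).

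The slope on Ttr within groups came from the same fit. It is given as a description without p-values, because the members were set against Ttr and the line on Ttr in these libraries set the classes. It was past an adjusted p of 0.05 for 7 of 9 members and 6.57% of genes in the 22 libraries, and nothing is read from that count. For each rise of Ttr by 1 on the log2 scale, the slope was 0.85 ± 0.03 for log2 Aqp1, 0.95 ± 0.02 for Slc4a5 and 0.77 ± 0.03 for Clic6. It was 0.18 ± 0.02 for Slc4a2, 0.16 ± 0.02 for Car12, 0.15 ± 0.02 for Car14 and 0.07 ± 0.01 for Slc12a2. Slc4a10 was at 0.01 ± 0.01 and Atp1b1 at -0.01 ± 0.01. In the 17 libraries the count was 3 members, Aqp1, Slc4a5 and Clic6, and 0.187% of genes. At equal Ttr in the 17, 0 members were called for housing in WT (0% of genes) and KD (0%) or for genotype in SH (0%) and EE (0%). There Slc4a2 was at 0.93 ± 0.25 in WT, against 1.46 ± 0.14 without Ttr in the model, Car14 at 0.66 ± 0.31 and Aqp1 at 0.41 ± 0.42 (edgeR adjusted p = 0.996 for each). In KD, Slc4a2 was at 0.59 ± 0.23 (edgeR adjusted p = 0.9998). The limit of 1 shared slope on log2 Ttr holds for these values too. In that set Ttr did not overlap between the housing groups of either genotype, so that Ttr and housing cannot be told apart.

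Other genes of these pathways, taken from lists of the families, differed in how far they followed Ttr. Of 8 sodium pump subunit genes, 5 other SLC4 genes that passed the filter, 7 other SLC12 genes, 11 other carbonic anhydrases, 3 other aquaporins, 4 other chloride intracellular channels and 8 sodium-proton exchangers, 0 were choroid-restricted and 1 was mixed, Car13. Just above the limit of 50% were Slc12a4 (51.4%, slope 3.36 ± 0.268 CPM for each 1000 CPM of Ttr), Slc4a11 (52.2%), Fxyd1 (52.9%), Clic3 (53.6%) and Slc12a7 (53.8%), all with a lower share than Slc12a2. Slc4a4, an electrogenic bicarbonate cotransporter known from astrocytes, ranged from 192.0 to 246.7 CPM, and Aqp4, the water channel of astrocytes, from 102.1 to 179.9 CPM. Of 8 kinases and adaptors of the WNK-SPAK pathway, 1 was mixed, Cab39l, an adaptor of SPAK, at 20.8 to 79.1 CPM with a baseline share of 33.6%. Stk39 itself had 53.7 to 101.3 CPM and a share of 61.5%.

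Channels of epithelia fell into all 3 classes. Of 8 channel genes 3 were restricted, Kcnj13 (0.0562 to 11.9 CPM), Kcne2 (0.0542 to 30.997 CPM) and Trpv4 (1.20 to 26.3 CPM), and Trpm3 was mixed (36.2 to 216.5 CPM). Kcnj13 encodes an inward rectifier potassium channel, Kcne2 a potassium channel subunit, Trpv4 a cation channel that responds to osmotic and mechanical stimuli, and Trpm3 another cation channel. Kcnj13 and Kcne2 are also on the list of choroid markers. The other 4 had a baseline, with shares of 53.5% for Kcnq1, 96.1% for Clcn2, 96.4% for Kcna3 and 98.1% for Kcna1. In the 22 libraries 0 genes of these lists were called in either housing comparison by edgeR. In the 17 libraries, Kcnj13, Kcne2, Trpv4 and Trpm3 were called higher in EE in both genotypes, as were Slc12a4, Cab39l and Car13. Fxyd1, Slc12a7, Stk39, Wnk4 and Clic3 were called higher in WT alone, while the interaction called 0 genes. In WT the calls were 4 of 8 channels, 3 of 8 WNK-SPAK genes, 2 of 7 SLC12 genes and 1 of 11 carbonic anhydrases. They were also 1 of 8 sodium pump genes and 1 of 4 chloride intracellular channels. In KD the same lists had 4, 1, 1, 1, 0 and 0. Of the SLC4, aquaporin and exchanger lists, 0 genes were called in either genotype. Over all genes, 3.48% were called higher in WT EE and 1.64% in KD EE.

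Markers of other cells moved with the members to differing degrees. All 10 choroid markers other than Ttr were restricted, and the sum of the list with Ttr ranged from 224.9 CPM in KD SH library 6 to 8236 CPM in KD EE library 36A, with 242.6 to 2744 CPM in WT SH, 231.9 to 7922 CPM in WT EE, 224.9 to 4306 CPM in KD SH and 464.1 to 8236 CPM in KD EE. No choroid marker was at 0 counts in any of the 22 libraries, though Kcnj13, Tmem72 and Kcne2 fell under the floor in some. The sum of 6 ependymal markers was 26.7 to 31.6 CPM in WT SH, 19.5 to 52.2 CPM in WT EE, 22.8 to 47.8 CPM in KD SH and 23.5 to 44.0 CPM in KD EE, and 4 of the 6 were mixed. The sum of 6 meningeal markers was 75.9 to 99.8, 69.2 to 143.3, 53.7 to 116.4 and 72.3 to 124.0 CPM in the same order, and 3 of the 6 were mixed. In the 17 libraries, 4 of 6 ependymal, 5 of 6 meningeal and 4 of 5 blood markers were called higher in WT EE, where 3.48% of genes were. In KD EE it was 3, 2 and 0, with 1.64% of genes called higher, and 1 ependymal marker was called lower. None of 6 markers each of neurons, astrocytes, oligodendrocytes, microglia and endothelium were called in those comparisons, and of 6 genes of hippocampal subfields 1, Neurod6, was called lower in WT EE (log2 fold change -0.41 ± 0.10, edgeR adjusted p = 0.013). The neuronal sum fell by 202.3 ± 44.1 CPM for each 1000 CPM of Ttr over the 22 libraries, and the share of any of these cells in the values of the transporters was not tested.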

How the data were processed

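Poly-A RNA of whole mouse hippocampus was sequenced as 24 paired-end libraries. The authors removed adapters by Skewer, aligned to GRCm38 by STAR (2.5 in the submitters' processing notes) and counted unstranded fragments on gene symbols by HTSeq. The deposited values are raw counts, 1 table for each library, without normalization. Reads in no gene (10.0% to 14.2% in the 22 libraries) or ambiguous between genes (3.77% to 4.41%) stayed out of library sizes and tests. A further deposited table, for the whole series, was not used.

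Members and lists were chosen with earlier results of these data known. Groups came from the sample titles, and the rule of the set left out 33B and 34B. Tests used edgeR 4.0.16 in R 4.3.3, with filterByExpr, TMM scaling and a quasi-likelihood model of 4 group means, with Benjamini-Hochberg adjustment over all genes tested. A call needed an adjusted p up to 0.05 and a log2 fold change of at least 0.38 in size, as in the study's methods. The same model was fitted with log2 CPM of Ttr (prior count 2) as a covariate. Levels are TMM-scaled CPM. Straight lines of CPM on Ttr, correlations on the log2 scale within each cluster of Ttr (given without tests) and figures were made in Python 3.11.15 with numpy 2.4.6, scipy 1.17.1 and matplotlib 3.10.9. Exon lengths and positions are from GENCODE M21 on GRCm38. Genes named are the members, Ttr, the genes of the lists and, for each member, the 3 genes of highest Pearson r. The scripts were tested on simulated data.

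Alternatives were the 17, 23 and 24 libraries, no lettered libraries, DESeq2 1.42.0 and its size factors, no filter, at least 10 counts in every library, the groups compared alone and adjusted p alone. In place of Ttr, the sum of 8 other choroid genes was used for the lines and the mean of their log2 CPM as the covariate. Others were CPM without TMM, each library left out in turn and, chosen after seeing the data, the line over the 10 libraries of high Ttr. The slope on Ttr within groups was also added after seeing the data.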

Additional observations from a re-analysis of the deposited data

Results flagged for a closer look

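In all, 40 combinations of gene and group were screened for a library far from the rest of its group, counting Ttr with the 9 members, and 9 were found, where chance marks about 1 in 20 for values of normal spread, which CPM within these groups does not have. All 9 were the highest library of a standard housed group. KD SH library 2 stood apart for Ttr (2622 CPM, next 136.0), Aqp1 (18.1 CPM, next 1.99), Slc4a5 (22.6 CPM, next 1.38), Clic6 (50.2 CPM, next 5.87), Slc4a2 (58.3 CPM, next 33.7) and Car14 (13.3 CPM, next 8.35). WT SH library 12 stood apart for Slc12a2 (117.7 CPM, next 98.5), Car12 (58.5 CPM, next 45.9) and Car14 (13.4 CPM, next 8.06). Both are among the 5 libraries that the study set aside. The combinations are not independent, since the members move together within a library.

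WT EE library 33B, left out of the comparisons for its quality, held signal of the transporters. Scaled with all 24 libraries, Slc4a5 was at 16.4 CPM, Clic6 at 40.2 CPM and Car12 at 60.7 CPM, above the highest of the 6 WT SH libraries (14.4, 35.9 and 58.3 CPM). The other 6 members and Ttr were not above the highest WT SH library of their own, with Aqp1 at 11.9 CPM, Slc4a2 at 50.9 CPM, Slc12a2 at 100.1 CPM, Car14 at 8.63 CPM and Ttr at 1262 CPM. KD EE library 34B had 0 counts of Ttr, Aqp1, Slc4a5 and Clic6 among 16442 counts. There 3 counts stand for 182.5 CPM without TMM scaling, while 1 count of Car12 stood for 45.0 CPM with it. The unscaled limit of 182.5 CPM lies below the TMM-scaled 690 CPM at which the higher libraries of Ttr began. It lies above the highest level of Aqp1, Slc4a5 and Clic6 in the 22 libraries, so it cannot show the level of these 3.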

How the results depend on the processing

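No paired analysis was possible because each library code is given once and no replicate number is shared between groups.

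Over 22 libraries 0 genes and 0 members were called in each comparison. With the study's 17 libraries, 664 genes and 7 members were called in WT housing, 325 genes and 6 members in KD housing, and 1 gene between enriched genotypes. Lettered libraries are all enriched, and without them 2 remain in WT EE and 3 in KD EE. WT housing then had 314 of 19153 genes (1.64%) and 2 members (Slc4a2 and Car12). KD housing had 0 genes and 0 members, with a members' median log2 fold change of 0.32, against 0.68 in the 22 libraries. In WT these medians were 1.02 and 0.74. Letter and housing are thus partly confounded. In that set 0 genes were called for WT EE against KD EE or for the interaction. Their median log2 values over the members were 0.79 and 0.69, against 0.11 and 0.09 in the 22 libraries. In each, 3 members had an unadjusted p under 0.05 in edgeR, as had 1646 and 1515 genes. All 24 libraries gave 1 gene and no filter 7 genes in WT. The Wald test of DESeq2 called 23 genes in WT housing, 2 in KD housing and 2 between SH genotypes, and 0 members. Leaving out each library gave 0 to 0 genes and 0 members in WT, and 0 to 1 genes and 0 members in KD and between enriched genotypes, the 1 gene without KD EE library 9.

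Of 18 log2 fold changes for housing, 1 changed sign, Slc12a2 in KD (-0.060 without lettered libraries). The cause was not tested. Another 15 values under an alternative came past the threshold, all higher in EE.

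With the sum of 8 other choroid genes in place of Ttr, the baseline share was -5.65% for Aqp1, -6.39% for Slc4a5, -5.53% for Clic6, 26.9% for Slc4a2, 32.03% for Car12 and 37.7% for Car14. Over the 10 libraries of higher Ttr it was 4.04% for Aqp1, 2.60% for Slc4a5, -0.22% for Clic6, 39.2% for Slc4a2 and 96.5% for Atp1b1. With all 24 libraries, of which 34B is nearly empty, it was 29.6% for Slc4a2, 84.0% for Slc4a10 and 56.7% for Slc12a2. Every member kept its class in these. Leaving out each library gave 0.630% to 1.63% for Aqp1, 0.0856% to 0.804% for Slc4a5, 1.12% to 1.60% for Clic6, 31.3% to 32.5% for Slc4a2, 36.3% to 38.6% for Car12, 40.1% to 45.1% for Car14, 60.1% to 64.6% for Slc12a2, 88.1% to 91.4% for Slc4a10 and 100.3% to 104.6% for Atp1b1. Depth limits the lowest values, with 4 counts of Slc4a5 and 7 of Aqp1 in KD SH library 5, and 44 of Clic6 in KD SH library 6, the lowest count of each over the 22 libraries.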
